A study of Mus musculus with 3 samples.

Results

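The genes described here build the contacts between epithelial cells: the claudins and other tight junction genes, the cadherins, the desmosomal genes and the connexins, with the epithelial adhesion gene Epcam. They were taken by symbol from the annotation of the array, as every single-symbol claudin, Tjp, desmoglein, desmocollin, plakophilin, connexin and cadherin gene with a numbered symbol, together with Ocln, F11r, Epcam, Jup and Dsp. That gave 80 of 19937 genes, namely 28 claudins, 22 cadherins, 13 desmosomal genes, 12 connexins, 4 other tight junction genes and Epcam, and 1 numbered cadherin was not analysed here. The rule uses gene symbols alone. They were measured in mature medullary thymic epithelial cells, which display tissue antigens to developing T cells, from mice aged 6 weeks of the labelled strain C57b/6. The AireKO library came from Aire–/– mice, the Sirt1cKO library from Sirt1fl/fl mice with a Foxn1-Cre transgene, active in the epithelium of the thymus, and the WT library from Sirt1fl/fl mice, whose Sirt1 alleles are floxed but intact. Each library was made from a pool of typically 3 mice and hybridised to 1 Affymetrix gene array, so there are no replicates, no test was possible, and each difference describes 2 libraries.

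Tight junctions seal the space between epithelial cells. Claudins form their strands, occludin and the F11r product (a junctional adhesion molecule) sit beside them, and the Tjp scaffold proteins tie them to actin. Adherens junctions hold cells together through cadherins linked to catenins, and desmosomes through desmogleins and desmocollins, which plakoglobin, plakophilins and desmoplakin anchor to keratin filaments. Connexins form gap junction channels, through which neighbouring cells exchange ions and small molecules. In the thymic medulla, claudin 3 and claudin 4 are known as markers of the medullary epithelial lineage, and EpCAM is a surface marker of medullary epithelium. EpCAM-positive, CD45-negative cells were sorted for this series, so the presence of Epcam is no finding.

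Values are log2 probe-set intensities, 1 probe set a gene. Their brightness depends on the probes as well as on the RNA, so a level is compared between libraries and not between genes. A gene counts as measured when its highest value reaches 6.81, the median of all values, and as within background when it lies at or below the 95th percentile of the 1027 olfactory receptor genes, which was 6.89 in AireKO, 6.34 in Sirt1cKO and 6.02 in WT. A gene counts as lower or higher when it differs by at least 2-fold. The targeted genes do not identify the knockouts, since Aire stood at 11.55, 11.24 and 11.97 in AireKO, Sirt1cKO and WT and Sirt1 at 11.42, 11.27 and 11.40, and the probes need not lie in the deleted parts. The free-text descriptions of the library labelled AireKO and the library labelled Sirt1cKO name each other's genotype, so each name here stands for the library so titled, and with exchanged labels every value of the 2 changes places. The libraries also differed outside the targeted genes. Xist, which silences 1 X chromosome in females, had levels of 6.75, 11.46 and 12.17, the Y-linked gene Eif2s3y at 9.75, 8.92 and 4.23, and H2-Ea, an MHC class II gene that is silent in the labelled strain, at 13.23, 5.90 and 5.60. Genotype therefore cannot be told apart from sex in any comparison of these libraries, the knockouts with each other included, or from strain background in those with AireKO. In pooled cells, fewer cells of a type and less RNA per cell cannot be told apart either.

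Of the 80 genes, 43 were measured and 37 were not. Above background in all 3 libraries were 35 genes, in some but not all of them 22, and in none 23. Of the 43 measured genes, 8 were within background in AireKO, and they enter the counts and medians below. Epcam, all 4 other tight junction genes and 11 of 13 desmosomal genes were measured. Of the claudins 11 of 28 were measured, of the cadherins 11 of 22 and of the connexins 5 of 12. The remainder include genes best known from other tissues, such as Cldn5 and Cdh5 of blood vessel endothelium, Cldn16 of the kidney, Cldn11 of myelin and Sertoli cells, Cdh15 of muscle and Gjb1 of liver and myelin. Not measured does not mean absent, since Cldn5 and Cdh5 were above background in Sirt1cKO and WT, and Cldn11, Cdh15 and Gjb1 in WT. Other genes best known from other tissues, such as Cdh9 and Gja3, were measured. In 24 of the 43 measured genes the 3 values lay within 0.5 of each other. The share of all measured genes within that span was not counted, so this number is not read as a trait of junction genes.

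**Figure D1:**
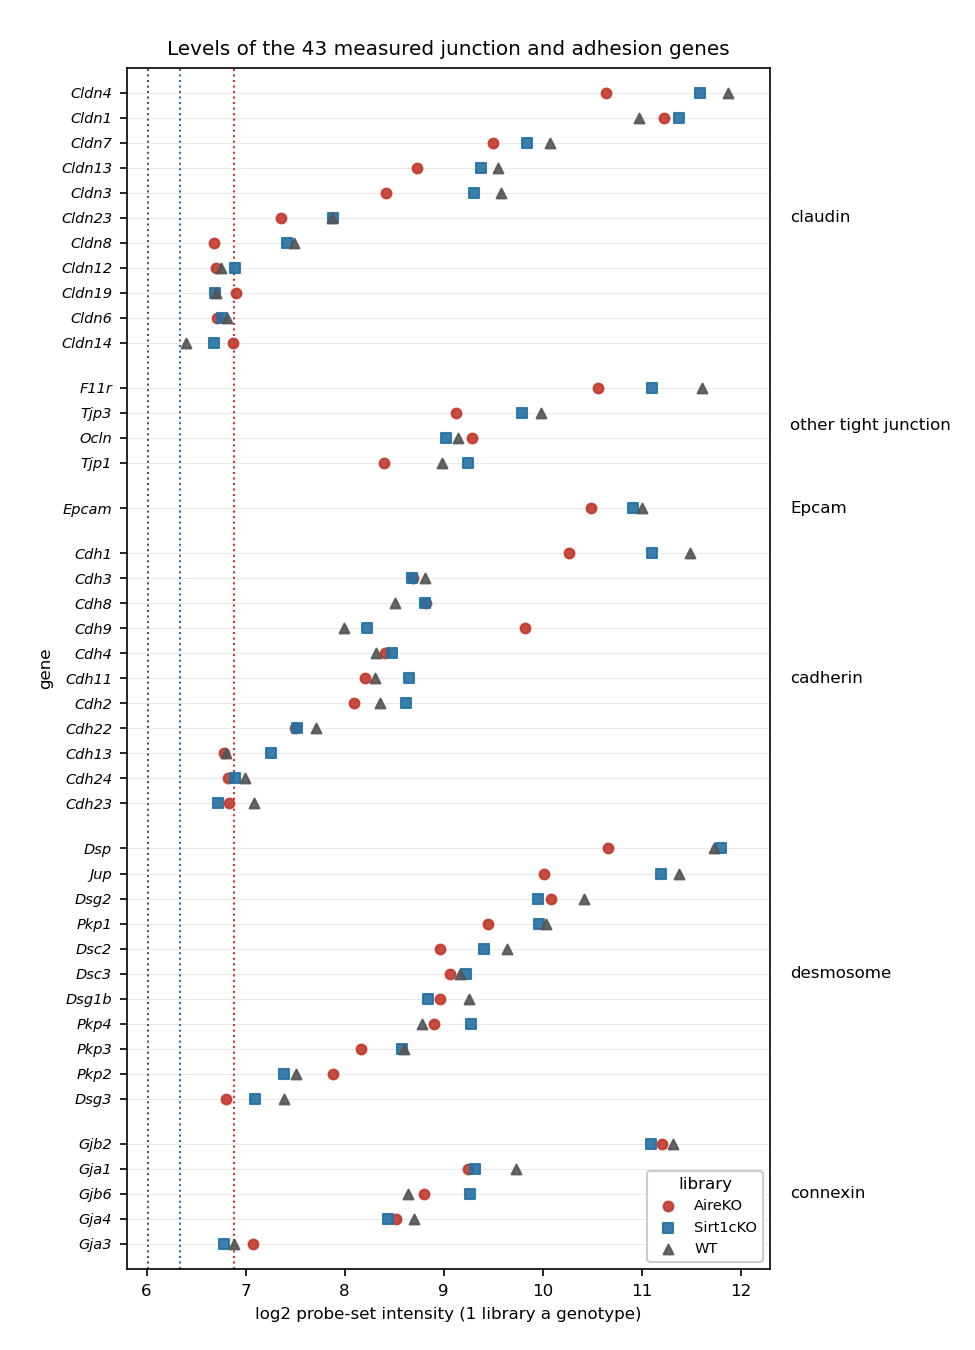
Log2 intensity of each of the 43 measured genes (horizontal axis), 1 point a library, grouped by family and ordered by mean within it, with dotted lines at the background of each library. AireKO lies to the left for Jup, Cldn4, Cdh1, Cldn3, Dsp and F11r and to the right for Cdh9. In these 7 genes Sirt1cKO lies within 0.51 of WT.

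In the library labelled AireKO, 6 of the 43 measured genes were lower than in WT, against 8.46% of all measured genes, and 1 was higher, against 2.68%. The 6 were Jup, Cldn4, Cdh1, Cldn3, Dsp and F11r, which between them belong to adherens junctions, tight junctions and desmosomes, and the 1 higher gene was Cdh9. The median difference of the 43 genes was -0.25, close to the -0.19 of all measured genes, and 32 of them (74.4%) lay below WT, against 63.7% of all measured genes. In 26 of the 43 AireKO was the lowest of the 3 libraries, against 52.8% of all measured genes. The share was larger among bright genes in the values as deposited. Among genes with a mean of at least 9, a limit chosen after the data were seen, 6 of 19 were lower (31.6%), against 11.5% of all such genes. The median of the 19 was -0.58, against -0.25 for all such genes. These are the same 6 genes, of which fewer stayed lower under the other scalings given next. The shares and medians of bright genes were not computed under those scalings. These counts depend on how the libraries are scaled. The split of 6 lower and 1 higher became 3 and 1 after quantile normalization and after loess, with Jup, Cldn4 and Cdh1 lower, and 1 and 1 after median centring, with Jup lower. The lower genes then made up 6.98% of the measured junction genes after quantile normalization, against 6.74% of all measured genes, and 7.14% after loess, against 6.19%, so both shares were near the background. After median centring they made up 2.33%, against 4.36% of all measured genes, of which 5.62% were higher. Median centring adds 0.27 to each difference between AireKO and WT.

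In the library labelled Sirt1cKO, none of the 43 genes was 2-fold lower than in WT, against 1.68% of all measured genes, and none was 2-fold higher, against 0.804%. The median difference was -0.10, beside -0.07 for all measured genes, and single differences ran between -0.51 and 0.63. At these shares a count of 0 among 43 genes is close to the background.

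**Figure D2:**
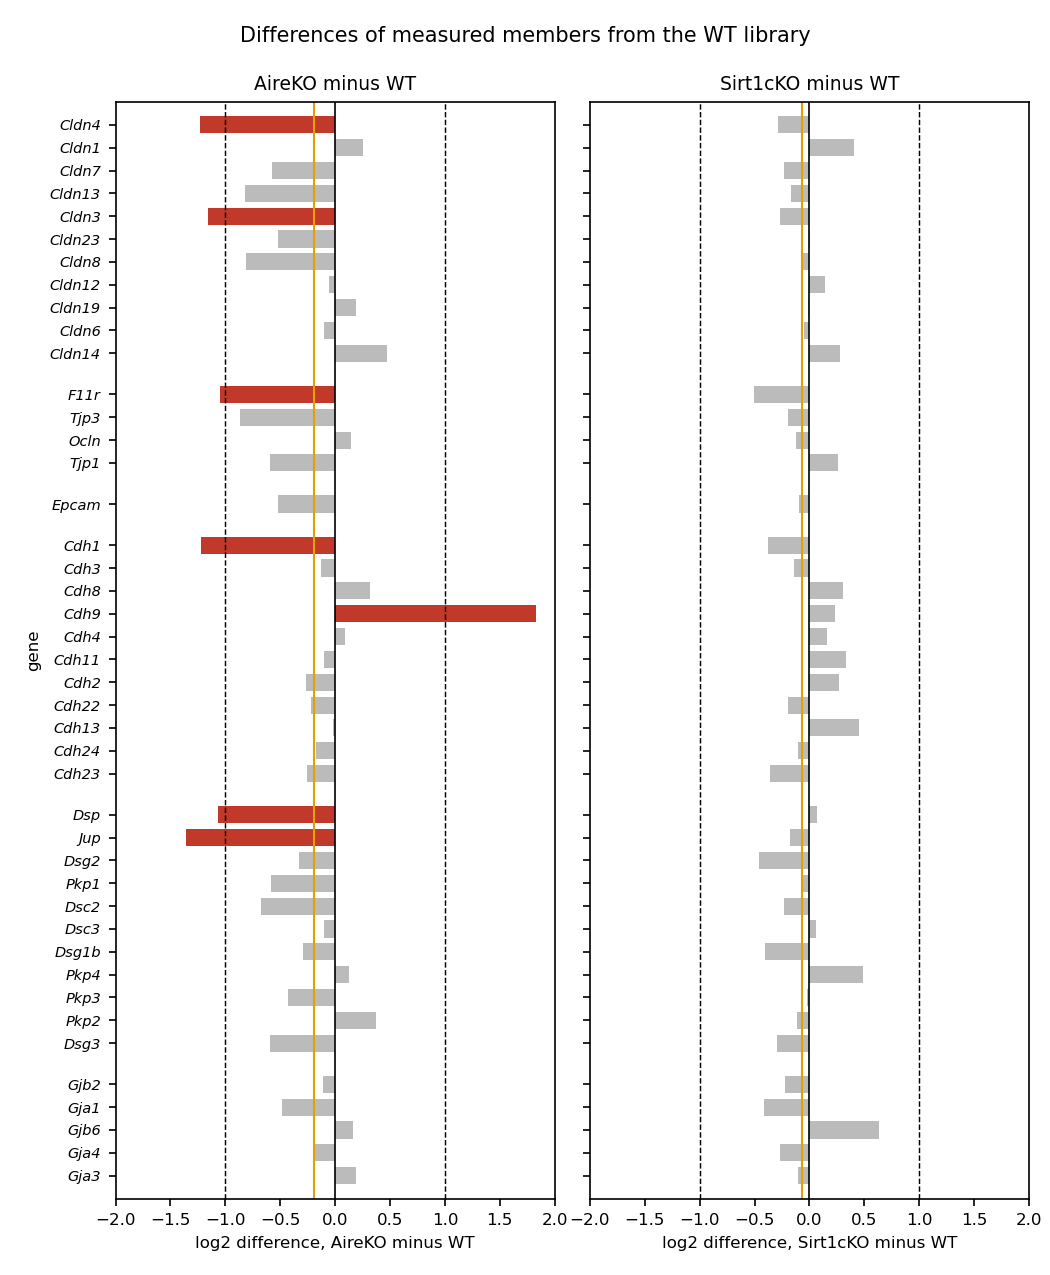
Log2 difference from the WT library for the 43 measured genes (bars), AireKO on the left and Sirt1cKO on the right, with dashed lines at 2-fold and an orange line at the median of all measured genes. In AireKO 6 bars pass the lower line and 1 the upper, and in Sirt1cKO all bars lie between -0.51 and 0.63.

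Claudin 4 and claudin 3 were the claudins that differed most between AireKO and WT. Cldn4 had log2 levels of 10.64 in AireKO, 11.59 in Sirt1cKO and 11.87 in WT. That is 2.34-fold below WT in AireKO, a log2 difference of -1.23, and -0.28 in Sirt1cKO. Cldn3 had 8.42 in AireKO, 9.31 in Sirt1cKO and 9.58 in WT, which is 2.23-fold below WT in AireKO, at -1.16, and -0.27 in Sirt1cKO. Both genes were low in AireKO, with Sirt1cKO just under WT. They are next to each other on chromosome 5 in the GRCm38.p6 gene table of RefSeq, and Cldn13, a rodent claudin 1 gene away, had 8.74 in AireKO, 9.38 in Sirt1cKO and 9.55 in WT, and differed by -0.82 in AireKO. The 250 bases before the start of Cldn3 and of Cldn4 are shown because these neighbours were both lower. Sequences are from RefSeq (GRCm38.p6), 5′ to 3′ on the strand of the gene, with capitals marking matches on either strand to CACCTG, the E-box core bound by Snail and Zeb factors, GGGCGG, the GC box, TATAAA, the TATA box, or AACCGGTT, a palindrome bound by Grainyhead-like factors. Cldn3 lies at chr5:134985964-134986213, plus strand, and Cldn4 at chr5:134946935-134947184, minus strand.
Cldn3: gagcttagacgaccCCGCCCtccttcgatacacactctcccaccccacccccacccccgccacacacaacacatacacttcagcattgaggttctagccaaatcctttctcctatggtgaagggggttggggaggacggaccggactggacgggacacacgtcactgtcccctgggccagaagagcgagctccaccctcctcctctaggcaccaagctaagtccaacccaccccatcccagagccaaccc
Cldn4: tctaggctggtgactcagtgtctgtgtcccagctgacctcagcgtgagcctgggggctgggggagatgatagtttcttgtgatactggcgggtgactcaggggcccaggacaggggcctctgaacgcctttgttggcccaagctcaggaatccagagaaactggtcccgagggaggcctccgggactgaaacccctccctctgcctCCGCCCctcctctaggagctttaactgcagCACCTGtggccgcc
The Cldn4 window holds 1 E-box, 14 to 9 bases before the start, and 1 GC box, and the Cldn3 window holds 1 GC box and no other of these motifs. Windows of this length for all genes, 32851 in all, hold CACCTG in 17.2%, GGGCGG in 32.7%, TATAAA in 12.4% and AACCGGTT in 0.116%. A window was listed for 54 of the 80 genes, 71 windows in all, of which 15 hold CACCTG, 29 GGGCGG, 5 TATAAA and 0 AACCGGTT. A match describes the letters in a window and is not evidence of binding.

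The other measured claudins gave a mixed picture. Cldn7, which is found along the lateral membranes of many epithelia, had 9.50 in AireKO, 9.85 in Sirt1cKO and 10.08 in WT. Cldn1, a barrier claudin of the epidermis, went the other way, with 11.23 in AireKO, 11.38 in Sirt1cKO and 10.97 in WT, so that WT was lowest. Cldn23 had 7.36 in AireKO and 7.88 in both other libraries. Cldn8, known from the distal nephron and gut, was within background in AireKO at 6.68, against 7.42 in Sirt1cKO and 7.49 in WT, and was at least 1.52-fold lower in AireKO than in WT. Cldn6, Cldn12, Cldn14 and Cldn19 were dim in every library, between 6.40 and 6.90. Cldn14 and Cldn19 counted as measured only through AireKO, Cldn12 only through Sirt1cKO and Cldn6 only through WT. All of these but Cldn19 were within background in AireKO, so their differences are poorly resolved, yet they enter the median of the family. Over the 11 measured claudins the median was -0.52 in AireKO, and between -0.25 and -0.39 under the other scalings. In Sirt1cKO it was -0.05, and 0.05 after median centring.

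F11r encodes the junctional adhesion molecule A of epithelia, platelets and leukocytes. Its levels were 10.56 in AireKO, 11.10 in Sirt1cKO and 11.61 in WT, 2.07-fold below WT in AireKO, at -1.05, and -0.51 in Sirt1cKO. That was the lowest Sirt1cKO difference among the 43 genes, and F11r was the 1 of the 6 genes for which Sirt1cKO lay about midway between the other libraries. The window before F11r, shown as the other tight junction gene that was lower, is at chr1:171437311-171437560, plus strand.
F11r: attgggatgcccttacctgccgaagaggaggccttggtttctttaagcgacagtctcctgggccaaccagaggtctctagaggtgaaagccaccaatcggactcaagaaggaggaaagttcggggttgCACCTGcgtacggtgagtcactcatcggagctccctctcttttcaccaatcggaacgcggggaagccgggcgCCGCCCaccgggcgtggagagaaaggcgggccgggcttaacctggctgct
It holds 1 E-box, 122 to 117 bases before the start, and 1 GC box.
The scaffold gene Tjp3, which is largely epithelial, had 9.12 in AireKO, 9.79 in Sirt1cKO and 9.99 in WT, and differed by -0.86 in AireKO. Tjp1, its widely expressed relative, had 8.40 in AireKO, 9.25 in Sirt1cKO and 8.99 in WT, so that Sirt1cKO was highest. Occludin, Ocln, did not follow F11r, with 9.29 in AireKO, 9.03 in Sirt1cKO and 9.15 in WT. Its difference between AireKO and WT was 0.14, and it stayed above 0 under each scaling, at up to 0.41. The 4 genes had a median of -0.73 in AireKO and -0.16 in Sirt1cKO. Epcam, whose product also stabilises claudins, had 10.49 in AireKO, 10.91 in Sirt1cKO and 11.01 in WT. Its difference of -0.52 in AireKO became -0.25 after median centring.

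Among the cadherins, E-cadherin, the classical cadherin of epithelia, was low in AireKO. Cdh1 had 10.27 in AireKO, 11.11 in Sirt1cKO and 11.49 in WT, which is 2.33-fold below WT in AireKO, at -1.22, and -0.38 in Sirt1cKO. Its neighbour on chromosome 8, Cdh3, the P-cadherin of basal epithelial cells, stood at 8.69 in AireKO, 8.68 in Sirt1cKO and 8.81 in WT. The 2 adjacent genes therefore differed unequally, at -1.22 for Cdh1 and -0.13 for Cdh3, and the sign of Cdh3 turned under each other scaling, up to 0.15. Cdh2, the N-cadherin of nerve and muscle, had 8.10 in AireKO, 8.63 in Sirt1cKO and 8.36 in WT. Cdh11, a mesenchymal cadherin, had 8.21 in AireKO, 8.65 in Sirt1cKO and 8.31 in WT. For both, Sirt1cKO was highest, and the difference between AireKO and WT, -0.26 and -0.10, was above 0 after median centring. Cdh22 had 7.50 in AireKO, 7.52 in Sirt1cKO and 7.71 in WT, and Cdh13, Cdh23 and Cdh24 were within background in AireKO.

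Cdh9, a type II cadherin best known from the nervous system and kidney, was the exception on the higher side. It had 9.82 in AireKO, 8.22 in Sirt1cKO and 7.99 in WT, 3.56-fold over WT in AireKO, at 1.83, with 0.23 in Sirt1cKO. It remained at least 1.83 under each scaling. Its neighbours on chromosome 15 in the gene table, Cdh6, Cdh10 and Cdh12, were not measured, and none of them was above background in AireKO. Cdh8, another type II cadherin, had 8.83 in AireKO, 8.81 in Sirt1cKO and 8.51 in WT, and Cdh4 had 8.41 in AireKO, 8.48 in Sirt1cKO and 8.32 in WT. H2-Ea, given above, was likewise high in AireKO alone, and the part of strain background in the Cdh9 difference was not tested. The window before Cdh9, shown as the 1 gene on the higher side, lies at chr15:16728665-16728914, plus strand.
Cdh9: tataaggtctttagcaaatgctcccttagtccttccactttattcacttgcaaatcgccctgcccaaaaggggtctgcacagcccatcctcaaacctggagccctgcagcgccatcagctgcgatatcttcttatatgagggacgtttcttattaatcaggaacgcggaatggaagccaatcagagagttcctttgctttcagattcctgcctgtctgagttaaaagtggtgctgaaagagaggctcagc
It holds none of the 4 motifs. Its GC content was 48.0%, beside 60.0% to 72.4% in the 5 windows of lower genes and a median of 52.4% over all windows. The 11 measured cadherins had a median of -0.13 in AireKO, which turned to 0.15 after median centring, and 0.16 in Sirt1cKO.

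The desmosome held both genes that were also lower in AireKO than in Sirt1cKO. Jup encodes plakoglobin, an armadillo protein shared by desmosomes and adherens junctions. Its levels were 10.02 in AireKO, 11.20 in Sirt1cKO and 11.37 in WT, 2.56-fold below WT in AireKO, at -1.36, and -0.18 in Sirt1cKO. Dsp encodes desmoplakin, which ties the desmosome to keratin filaments, and had 10.66 in AireKO, 11.80 in Sirt1cKO and 11.74 in WT, 2.10-fold below WT in AireKO, at -1.07, and 0.07 in Sirt1cKO. For both genes the Sirt1cKO and WT libraries lay within 0.2 of each other and AireKO apart. Their windows are shown because these desmosomal genes moved together, Jup at chr11:100397791-100398040, minus strand, and Dsp at chr13:38151044-38151293, plus strand.
Jup: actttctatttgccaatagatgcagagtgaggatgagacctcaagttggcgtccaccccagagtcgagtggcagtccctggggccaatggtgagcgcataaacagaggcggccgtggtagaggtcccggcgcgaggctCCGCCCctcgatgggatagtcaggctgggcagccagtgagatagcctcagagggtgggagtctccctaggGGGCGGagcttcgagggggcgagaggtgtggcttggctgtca
Dsp: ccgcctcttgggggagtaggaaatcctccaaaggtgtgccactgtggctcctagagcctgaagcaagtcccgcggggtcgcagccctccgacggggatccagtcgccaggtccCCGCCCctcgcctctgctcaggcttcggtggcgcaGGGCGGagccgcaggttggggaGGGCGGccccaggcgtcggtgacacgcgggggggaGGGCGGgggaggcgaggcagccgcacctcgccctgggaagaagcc
The Jup window holds 2 GC boxes and the Dsp window 4, with no E-box, TATA box or AACCGGTT in either. Of the 6 lower genes 5 had a window, and all 5 hold GGGCGG, as do 22 of the 36 windows of measured genes, while 2 of the 5 hold CACCTG, as do 12 of the 36.

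In AireKO against WT, the desmosomal cadherins differed less than Jup and Dsp, while in Sirt1cKO Dsg2, at -0.46, and Dsg1b, at -0.41, differed more. Dsg2, the most widely expressed desmoglein, had 10.09 in AireKO, 9.96 in Sirt1cKO and 10.42 in WT. Dsc2, its desmocollin counterpart, had 8.97 in AireKO, 9.41 in Sirt1cKO and 9.64 in WT, and differed by -0.68 in AireKO. Dsc3, a basal epidermal desmocollin, had 9.06 in AireKO, 9.23 in Sirt1cKO and 9.17 in WT. Dsg3, the desmoglein attacked in pemphigus vulgaris, was within background in AireKO at 6.80, against 7.10 in Sirt1cKO and 7.39 in WT, and was at least 1.42-fold lower in AireKO than in WT. Dsg1b had 8.96 in AireKO, 8.84 in Sirt1cKO and 9.25 in WT, but near-identical Dsg1 copies may share its probes. These desmosomal cadherin genes form 1 cluster on chromosome 18, where Dsg1c and Dsg4 were not measured.

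Plakophilins split. Pkp1, abundant in stratified epithelia, had 9.45 in AireKO, 9.96 in Sirt1cKO and 10.03 in WT, and Pkp3 had 8.17 in AireKO, 8.58 in Sirt1cKO and 8.60 in WT. Pkp2, the plakophilin of simple epithelia and heart, had 7.88 in AireKO, 7.39 in Sirt1cKO and 7.50 in WT, so that it was highest in AireKO. Pkp4, also found at adherens junctions, had 8.91 in AireKO, 9.28 in Sirt1cKO and 8.78 in WT. Over the 11 measured desmosomal genes the median was -0.43 in AireKO, between -0.16 and -0.25 under the other scalings, and -0.11 in Sirt1cKO.

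The connexins were the family with the smallest differences in AireKO, none beyond 0.48 in either direction. Gjb2, the connexin of the inner ear and many epithelia, had 11.20 in AireKO, 11.10 in Sirt1cKO and 11.32 in WT. Gja1, the most widely expressed connexin, had 9.25 in AireKO, 9.31 in Sirt1cKO and 9.73 in WT, so that both knockouts were lower than WT by a similar amount, -0.48 and -0.42. Gjb6, the neighbour of Gjb2 on chromosome 14, was highest in Sirt1cKO, with 8.80 in AireKO, 9.27 in Sirt1cKO and 8.64 in WT. Its 0.63 was the largest Sirt1cKO difference of the 43 genes and the 1 that passed 1.5-fold. Of all measured genes 4.01% were higher by that much in Sirt1cKO. Gja4, known from endothelium and oocytes, had 8.52 in AireKO, 8.44 in Sirt1cKO and 8.71 in WT, and the lens connexin Gja3 had 7.08 in AireKO, 6.78 in Sirt1cKO and 6.89 in WT. The median of the 5 was -0.11 in AireKO, turning to 0.05, 0.04 and 0.16 under quantile normalization, loess and median centring, and -0.22 in Sirt1cKO.

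**Figure D3:**
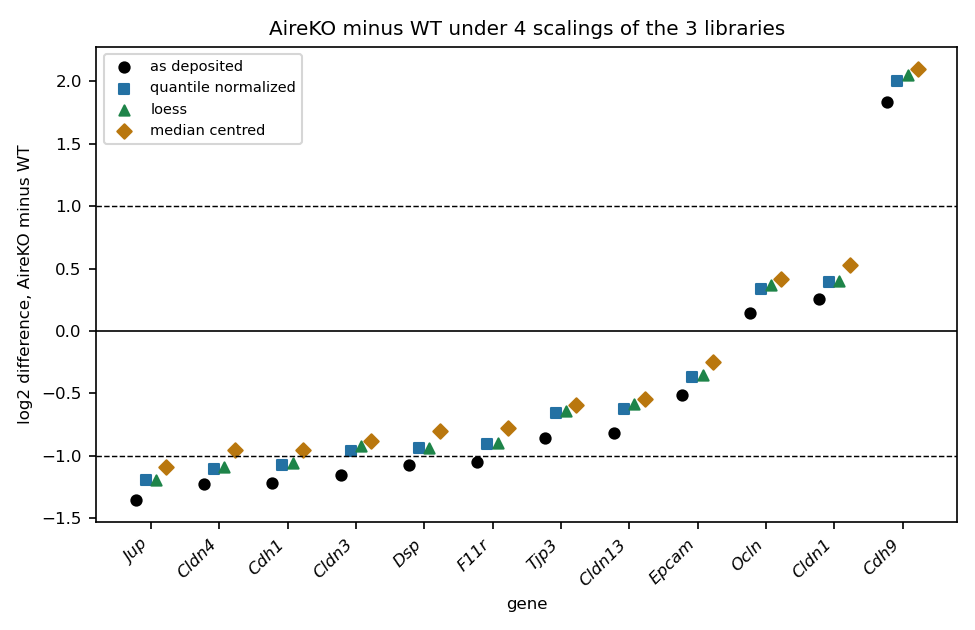
Log2 difference between AireKO and WT (vertical axis) for 12 of the genes under the 4 scalings of the libraries, with dashed lines at 2-fold. Each scaling raises the points, Jup is below the line under all 4, and Epcam, Ocln, Cldn1 and Cdh9 keep their side of 0.

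Set against each other, the knockouts differed at least 2-fold in 3 of the 43 genes. Jup and Dsp were lower in AireKO than in Sirt1cKO, by 2.27-fold and 2.20-fold, against 2.72% of all measured genes that were lower, and Cdh9 was higher by 3.03-fold, against 1.04%. Cldn4, at -0.95, and Cldn3, at -0.89, fell just short. The median of the 43 genes was -0.30, beside -0.11 for all measured genes. After median centring Jup was the 1 lower gene, while Dsp stood under 2-fold. Both comparisons with WT use the same WT library, so their values are given side by side and not as support for each other.

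The partners of these genes were taken from lists of junction and adhesion genes. Their counts stand beside the shares of all measured genes that were lower in AireKO, 8.46% as deposited, 6.74% after quantile normalization, 6.19% after loess and 4.36% after median centring. Of 18 measured adherens junction partners, 3 were lower and 0 higher in AireKO. They were Ctnnb1, the beta-catenin gene, with 10.23 in AireKO, 10.75 in Sirt1cKO and 11.47 in WT, Pvr, a nectin-like adhesion gene, and Camsap3, which anchors microtubules to junctions. Pvr and Camsap3 were within background in AireKO, so that Pvr was at least 2.19-fold and Camsap3 at least 1.84-fold lower, the second bound being under 2-fold. Ctnnd1, which encodes the p120 catenin that holds cadherins at the membrane, differed by -0.82 and Ctnna1, the alpha-catenin gene, by -0.43, while Ctnnd2 differed by 0.72. The count of 3 became 4 after quantile normalization and after loess and 1 after median centring. Their median was -0.41 in AireKO and -0.14 in Sirt1cKO. Of 26 measured tight junction partners 1 was lower, the polarity gene Pard6g at -1.32, and their median was -0.38 in AireKO and -0.08 in Sirt1cKO. After median centring these became -0.11 and 0.01.

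The desmosome partners, mostly the keratins to which desmosomes attach, had the lowest median of the 7 lists, -1.03 in AireKO and -0.45 in Sirt1cKO. In AireKO 7 of 13 were lower and 0 higher, a count of 5 after quantile normalization, 4 after loess and 3 after median centring. Krt7 had 9.06 in AireKO, 9.72 in Sirt1cKO and 10.98 in WT. It was the 1 lower gene of the list in Sirt1cKO, at -1.26, where 1.68% of all measured genes were lower. Krt19, of simple epithelia, differed by -1.82 in AireKO and -0.36 in Sirt1cKO, and Krt17 by -1.52 and -0.64. Krt5 and Krt10 differed by -1.09 and -1.03 in AireKO. Krt15, the remaining gene of the 7, was within background there and at least 1.81-fold lower, a bound under 2-fold, which leaves 6 genes above background in both libraries. Perp, a desmosomal tetraspan protein, had 10.40 in AireKO, 11.52 in Sirt1cKO and 11.55 in WT, the pattern seen for Dsp and Jup. Krt18, by contrast, differed by -0.28 in AireKO, and Evpl, the envoplakin gene, by 0.08. Of 9 junction proteases and their inhibitors 1 was lower in AireKO, the membrane protease Prss8, which had 7.01 in AireKO, 8.54 in Sirt1cKO and 8.88 in WT, and the list's median was -0.74. The hemidesmosome list, at -0.30 in AireKO and -0.38 in Sirt1cKO, held 1 lower gene, Cd151 at -1.57. Its AireKO median was -0.13 after quantile normalization, -0.09 after loess and -0.03 after median centring. The 4 measured pannexins and other gap junction genes held none, with a median of 0.02.

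**Figure D4:**
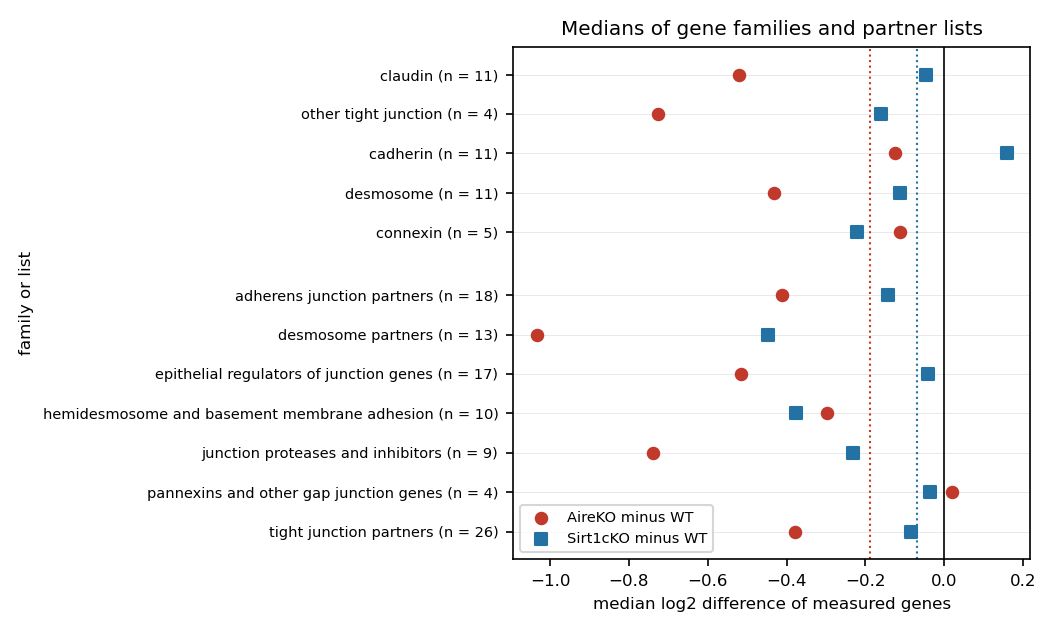
Median log2 difference from WT of the measured genes of each family and partner list (horizontal axis), AireKO and Sirt1cKO as separate points, with dotted lines at the medians of all measured genes. In AireKO the desmosome partners lie lowest at -1.03. Cadherins, connexins and the list of pannexins and other gap junction genes lie above the dotted line at -0.19.

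Regulators of junction genes held differences in both directions. Of 17 measured, 3 were lower and 2 higher in AireKO, a split of 1 and 1 after quantile normalization and after loess and of 1 and 2 after median centring. Among all measured genes 8.46% were lower and 2.68% higher as deposited. These shares became 6.74% and 3.29% after quantile normalization, 6.19% and 3.43% after loess and 4.36% and 5.62% after median centring. The lower genes are epithelial regulators, namely Elf3, with 9.28 in AireKO, 10.60 in Sirt1cKO and 10.66 in WT, Esrp1 at -1.14 and Esrp2 at -1.03, the last pair being epithelial splicing regulators. Klf5 and Grhl2, both known to activate epithelial junction genes in mice, differed by -0.97 and -0.68. The higher genes, Snai2 and Zeb2, are known repressors of Cdh1. Snai2 had 9.03 in AireKO, 8.99 in Sirt1cKO and 7.79 in WT, so that both knockouts stood above WT, at 1.24 and 1.20. Zeb2 had 6.92 in AireKO, against 6.31 in Sirt1cKO and 5.83 in WT, the last 2 within background. Zeb2 counted as measured only through AireKO, and against the WT background it was at least 1.86-fold higher, a bound under 2-fold. Snai1 and Zeb1 differed by 0.18 and 0.40 in AireKO, and Trp63, the master regulator of stratified epithelium, by 0.30. Ehf and Ovol2, also epithelial regulators, differed by 0.26 and 0.18 in AireKO and by 0.82 and -0.04 in Sirt1cKO. In all, 10 of the 17 genes lay below 0 in AireKO, against 63.7% of all measured genes. The part of these regulators in the junction gene differences was not tested.

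Marker lists of medullary epithelium and of the other cells it could hold differed in direction. Krt5 and Krt14 of the mature medullary list, Krt10 of the keratinocyte-like list and Krt8 of the cortical list are also desmosome partners. Hnf4a of the mimetic list is also among the regulators, so these lists are not separate observations. Counts of lower genes stand beside 8.46% of all measured genes in AireKO and 1.68% in Sirt1cKO. Of 11 measured markers of mature medullary epithelium 2 were lower in AireKO, with a median of -0.57 there and -0.45 in Sirt1cKO. The microfold cell list had a median of -0.94 in AireKO, with 3 of 7 genes lower, and -0.36 in Sirt1cKO. The keratinocyte-like list had -0.62 in AireKO, with 3 of 10 lower, and -0.15 in Sirt1cKO, with 1 lower. The third gene in AireKO and the 1 in Sirt1cKO was Klk5, within background in both and at least 1.41-fold and 2.05-fold lower. The list of enterocyte, liver and endocrine mimetic cells had -0.81 in AireKO, with 3 of 10 lower, and -0.29 in Sirt1cKO. Cortical epithelium markers had -0.80 in AireKO, with 2 of 6 lower, and -0.22 in Sirt1cKO. The tuft cell list had -0.44 in AireKO and 0.57 in Sirt1cKO, with no gene 2-fold different from WT in either. Between the knockouts its median was -1.07, with 7 of 8 genes below 0, against 61.7% of all measured genes. There 5 of the 8 were lower in AireKO than in Sirt1cKO, against 2.72% of all measured genes. This count was 3 after quantile normalization, 3 after loess and 2 after median centring. Muscle markers had a median of 0.21 in AireKO and -0.14 in Sirt1cKO, with 2 of 6 lower in AireKO, of which Chrna1 was within background there and at least 1.04-fold lower. Several of these counts in AireKO against WT shrank under other scalings. The share of all measured genes became 6.74% after quantile normalization, 6.19% after loess and 4.36% after median centring. After quantile normalization, loess and median centring the cortical list held 1, 0 and 0 lower genes, the mature medullary list 1, 1 and 1, the keratinocyte-like list 2, 2 and 1, and the microfold and mimetic lists 2 each under all 3. The part of any such cell type in the junction gene differences was not tested.

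Markers of cells outside the sort gate were followed as well. Ptprc, the CD45 gene, had 7.64 in AireKO, 7.66 in Sirt1cKO and 7.77 in WT. The fibroblast list had 7 of 9 genes above background in each library, and its summed level was 12.38 in AireKO, 11.62 in Sirt1cKO and 11.32 in WT. The median difference went the other way, at -0.14 in AireKO, with 4 of 7 genes below 0, and -0.18 in Sirt1cKO, with 6 of 7 below 0. Of all measured genes 63.7% lay below 0 in AireKO and 58.4% in Sirt1cKO. The AireKO median of the list turned to 0.0073 after loess and 0.13 after median centring. The list held 1 lower and 1 higher gene in AireKO, against 8.46% and 2.68% of all measured genes. The higher one was decorin, Dcn, with 11.98 in AireKO, 10.87 in Sirt1cKO and 10.08 in WT. Dcn was the brightest gene of the list in each library, so it weighs most in the summed level. The lower one was Pdgfrb, with 7.40 in AireKO, 8.15 in Sirt1cKO and 8.42 in WT. Pdgfrb and the collagen genes of the list were above background in all 3 libraries, while the defining marker Pdgfra, and Lum, were within it in all 3. Of 13 thymocyte genes 7, 9 and 9 were above background in AireKO, Sirt1cKO and WT, with a summed level of 11.18, 11.11 and 10.81 and a median difference of 0.45 in AireKO and 0.37 in Sirt1cKO. Endothelial genes, 5, 7 and 9 of 13 above background in the same order, had summed levels of 10.42, 10.51 and 10.32. Kdr, Robo4, Emcn and Sox17 were within background throughout, while Tek, Flt1, Vwf, Pecam1 and Eng were above it in all 3 libraries. The dendritic cell and macrophage list held 2 lower genes of 10 measured in AireKO, against 8.46% of all measured genes. Of the 2, Itgam was within background and at least 1.33-fold lower. The other, Lyz2, was the brightest gene of the list, with 10.76 in AireKO, 11.26 in Sirt1cKO and 12.06 in WT. In AireKO 5 of the 10 genes lay below 0, against 63.7% of all measured genes. The list had 8, 11 and 12 of 12 genes above background and summed levels of 11.99, 12.16 and 12.66, in which Lyz2 weighs most. The B cell list had 3, 3 and 4 of 5 and 10.16, 10.03 and 10.11. Neuroglial genes were not measured, with 0, 1 and 1 of 3 above background and summed levels of 7.61, 7.54 and 7.56. What these cells contributed to the junction gene differences was not tested.

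The 37 genes that were not measured did not exceed 6.76 in AireKO, 6.63 in Sirt1cKO or 6.69 in WT. Their median difference was 0.36 in AireKO and 0.05 in Sirt1cKO, close to the 0.25 and 0.08 of all genes not measured, while the olfactory receptor genes had 0.70 and 0.27. Nothing is read from these offsets. Among the 37, Cldn2, a pore-forming claudin, was within background in all 3 libraries, and Cldn18, the claudin of stomach and lung, was above background in Sirt1cKO at 6.63 and WT at 6.32 but not in AireKO at 5.87.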

How the data were processed

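Amplified RNA of sorted cells was hybridised to 1 Affymetrix Mouse Gene 1-ST array for each genotype. The authors deposited 1 linear intensity for each probe set, and the submitters' processing notes name RMA, with software, version and annotation not given in the sources used here. Here log2 was taken of the deposited intensity, with no further scaling in the main values. Of 34760 probe sets, 21640 carried 1 symbol, which gave 19937 genes, the probe set with the brightest mean standing for its gene, and 12556 were measured. By Entrez identifier, all 80 genes were found in the RefSeq table (GRCm38.p6), and 2 had more than 1 probe set. Another 8 probe sets carried such a symbol beside others and were not used. With 1 array a group, the number of arrays limits precision and there is no replicate check.

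Members, lists and thresholds were chosen with earlier results of these data known. Any member could be named. Values in all libraries were required for Epcam, Ocln, F11r, Jup, Dsp, the Tjp and desmosomal genes above background, the brightest 5 claudins, cadherins and connexins, and members at least 2-fold different. Partner genes were named if 2-fold different or, up to 4 a list, brightest. Ctnnd1, Ctnna1, Ctnnd2, Krt18, Evpl, Klf5, Grhl2, Snai1, Zeb1, Trp63, Ehf and Ovol2 include some chosen after their values were seen. Alternatives were quantile normalization, loess with a span of 0.3, median centring, the mean of probe sets, other filters (the 75th percentile, olfactory background, none), folds of 1.5 and 3, values raised to background, exchanged labels and, added later, a mean of at least 9. Counting was checked on simulated data. Versions were statsmodels 0.14.6 for loess, pandas 2.3.3, numpy 2.4.6, matplotlib 3.10.9 and Python 3.11.15.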

Additional observations from a re-analysis of the deposited data

How the results depend on the processing

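For AireKO against WT, the 6 lower genes became 3 after quantile normalization and loess and 1 after median centring. They became 12 at 1.5-fold (27.9%, against 23.6% of all measured genes) and 0 at 3-fold (against 1.86%). The 1 higher gene became 0 with a mean of at least 9, against 3.05% of all such genes. The median became 0.019 after median centring and 0.017 with no filter, and -0.58 with a mean of at least 9. For Sirt1cKO against WT, the 0 higher genes became 1 at 1.5-fold (2.33%, against 4.01% of all measured genes). For AireKO against Sirt1cKO, the 2 lower genes became 1 after median centring, against 1.66% of all measured genes. They became 9 at 1.5-fold (20.9%, against 11.8%) and 0 at 3-fold (against 0.518%). The 1 higher gene became 0 with a mean of at least 9, against 0.899% of all such genes. The median of this comparison became 0.019 with no filter. With exchanged labels, AireKO had 0 lower and 0 higher, Sirt1cKO 6 lower and 1 higher, and the difference between the knockouts 1 lower, 2 higher and a median of 0.30. Of 99 alternative values of these counts and medians, 77 lay within 1.5 times the main value for a count or 0.25 for a median. That number is no measure of stability. The limit of 0.25 is larger than the Sirt1cKO median of -0.10 and near the AireKO median of -0.25. Only 2 of the 80 genes had more than 1 probe set, so averaging probe sets could change little. Jup, Cldn4, Cdh1, Cldn3, Dsp, F11r and Cdh9 kept their sign in AireKO against WT under the 4 scalings, while exchanged labels turn the sign of each difference between the knockouts. In AireKO against WT, 31 of 43 genes kept 1 sign under the 4 scalings. The cause of these changes beyond scaling and filtering was not tested. Dim genes are least resolved in AireKO, where background was highest. No paired analysis was possible because each genotype has 1 library.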
